A study of Mus musculus with 6 samples.

Results

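Cerebellar granule neurons are the small glutamatergic neurons that fill the granular layer of the cerebellum. They were picked out of single-nucleus RNA libraries labelled as mouse pons and medulla, a tissue in which they do not normally lie. Of 43836 deposited barcodes, 40139 had at least 500 detected genes and at most 5% of their unique molecular identifiers (UMIs, counted RNA molecules) from mitochondrial genes. Of these, 1809 nuclei (4.51%) were taken as granule neurons. A nucleus qualified with at least 1 UMI each of Gabra6 and Fat2 and at least 5 UMIs over Gabra6, Fat2, Chn2, Il16 and Cnpy1 together. It could hold at most 1 UMI of the myelin genes Mog and Mag, and at most 1 UMI of the inhibitory neuron genes Slc32a1, Gad1 and Gad2. The first group, with 3 libraries, came from wild-type C57BL6/J males under chronic intermittent hypoxia (CIH). They were weaned at postnatal day 21 and exposed from day 22 to day 43. Each cycle began with 60 seconds of nitrogen, which lowered oxygen to 4.5 to 5%, and up to 5 minutes of air then restored 21%. There were 80 cycles a day within 8 hours, for 21 days. The second group, also with 3 libraries, came from males of the same strain and ages kept in room air (Normoxia). Nuclei of frozen brainstem were stained with Hoechst, sorted by flow cytometry and loaded on 10x Genomics 3′ chemistry. The number of mice behind each library is not stated, so the tests measure the spread between libraries.

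Granule neurons receive mossy fibre input at glutamatergic synapses and inhibition from Golgi cells, and their parallel fibres excite Purkinje cells. Gabra6 encodes the α6 subunit of the GABA-A receptor, which with the δ subunit (Gabrd) carries the tonic inhibition typical of these cells. Fat2 is a large protocadherin of parallel fibres, and Chn2, Il16 and Cnpy1 are enriched in granule neurons. In mouse, nuclear factor I (NFI) proteins take part in the maturation of granule neurons and in the switching on of Gabra6. Gabra6 (ENSMUSG00000020428) spans chr11:42306437-42321072 on the minus strand of mm10, and Fat2 (ENSMUSG00000055333) spans chr11:55250609-55336564 on the same strand. Because Gabra6 anchors the definition of these nuclei, its RefSeq promoter is shown here, from 250 bases before the start to 50 after it (chr11:42321023-42321322, minus strand, GRCm38.p6). Capitals mark a match to the NFI half-site letters, TTGGC or its complement GCCAA, searched on both strands.
Gabra6 promoter: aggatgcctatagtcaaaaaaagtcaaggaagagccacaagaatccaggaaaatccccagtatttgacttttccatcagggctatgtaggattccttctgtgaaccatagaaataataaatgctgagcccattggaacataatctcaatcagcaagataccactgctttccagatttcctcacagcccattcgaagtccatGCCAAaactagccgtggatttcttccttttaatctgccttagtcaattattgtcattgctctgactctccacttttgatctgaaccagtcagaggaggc
The window held 1 match, 49 bases before the start. The same letters occurred in 46.7% of 32817 promoters of this length, so a match of this kind is common and is given as a description.

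The granule nuclei held 7957286 UMIs in all. Their sums were 2106005, 2788226 and 733043 UMIs in CIH 1, 2 and 3, and 724300, 1082418 and 523294 in Normoxia 1, 2 and 3. CIH 1 and Normoxia 2 shared 1563 cell barcodes, 33.9% of the barcodes of CIH 1 and 21.1% of those of Normoxia 2, while no other pair shared more than 38. For these barcodes the logarithm of the UMI count correlated between both libraries (r = 0.969 across barcodes), with a median of 7872 UMIs in CIH 1 and 984 in Normoxia 2. Of the granule nuclei, 137 of 452 in CIH 1 and 13 of 243 in Normoxia 2 carried such a barcode. CIH 3 stood apart: the chi-square statistic per gene of its granule sums was 5.46 against CIH 1 and 4.78 against CIH 2, compared with 2.82 between CIH 1 and CIH 2. Normoxia 3 stood apart from Normoxia 1 and 2 as well, at 3.05 and 2.87 against 1.49 between those 2. Across groups, CIH 3 had its smallest value against Normoxia 3, at 3.63. CIH 1 had 1.90 and 1.93 against Normoxia 1 and 2, below its value against CIH 2. In the shallow nuclei defined below, CIH 3 had 2.05 against Normoxia 3, compared with 4.26 and 4.36 against CIH 1 and 2. Results are therefore also given without the shared barcodes and without CIH 3 and Normoxia 3 where that changes a call, a direction or a value by over 1.5 times. CIH 3 and Normoxia 3 were singled out from these same sums, and leaving them out lowers the spread within groups. Calls without them are therefore values, not established changes.

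The share of nuclei that were granule neurons averaged 8.54 ± 5.85% in CIH and 2.94 ± 1.23% in Normoxia (SD, n = 3 each). In CIH 1, 2 and 3 it was 10.4% (452 nuclei, 95% exact binomial interval 9.50 to 11.3), 13.2% (589 nuclei, 12.3 to 14.3) and 1.99% (212 nuclei, 1.73 to 2.28). In Normoxia 1, 2 and 3 it was 3.62% (170 nuclei, 3.103 to 4.19), 3.67% (243 nuclei, 3.23 to 4.16) and 1.52% (143 nuclei, 1.29 to 1.79). The groups overlapped, because CIH 3 lay below Normoxia 1 and Normoxia 2. The difference of 5.60 percentage points gave p = 0.3 in a 2-sided exact permutation test, in which 3 against 3 libraries cannot go below 0.1. Without CIH 3 the difference was 8.88 points and the groups did not overlap (exact permutation p = 0.1, the smallest possible). Intervals cover counting error only. The tissue taken and the sort can set such a share, and their part was not tested.

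**Figure D1:**
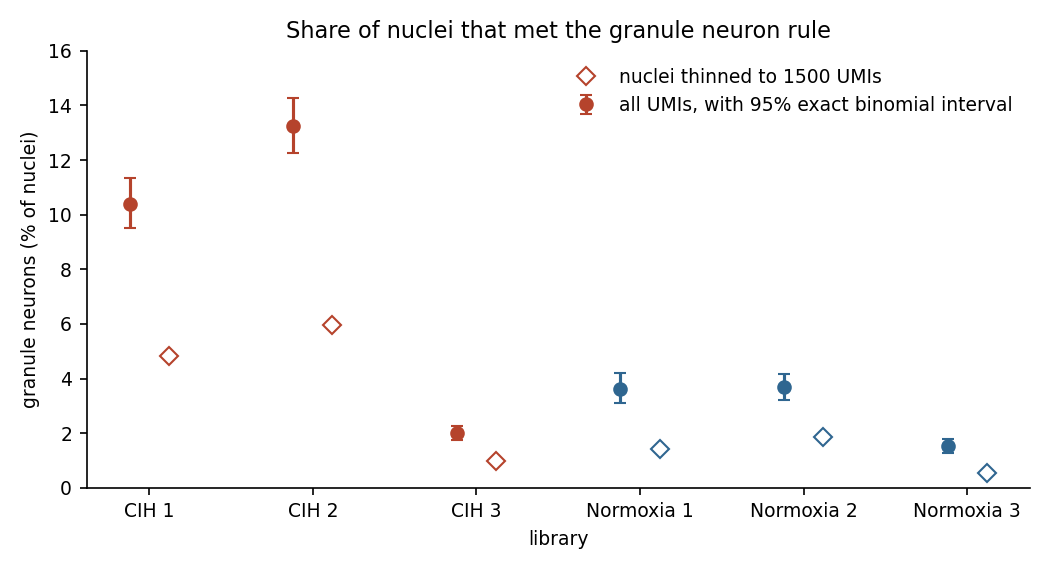
Percentage of kept nuclei that met the granule neuron rule in each library, 3 of CIH at the left and 3 of Normoxia at the right; filled points use all UMIs, with 95% exact binomial intervals, and open diamonds use nuclei thinned to 1500 UMIs. CIH 1 (10.4%) and CIH 2 (13.2%) stand above the other 4 libraries, which lie between 1.52% and 3.67%.

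The plot of shares also gives the values after each nucleus was thinned at random to 1500 UMIs, which removes differences in depth. The thinned shares were 4.81, 5.95 and 0.977% in CIH libraries, compared with 1.41, 1.86 and 0.526% in Normoxia libraries, in the same order of libraries, with 815, 665 and 2966 CIH and 659, 1564 and 1784 Normoxia nuclei too shallow to be included. Gabra6 UMIs outside granule neurons were read as a background level. Among oligodendrocytes, which should lack Gabra6 and were defined by at least 3 UMIs of Mog and Mag, a Gabra6 UMI was seen in 19.2, 15.8 and 3.77% of nuclei in CIH 1, 2 and 3, at median depths of 3490, 4002 and 3058.5 UMIs. The Normoxia values were 9.59, 9.79 and 6.57%, at 3440, 3462 and 2648 UMIs. CIH 1 and CIH 2 were the highest in this value too, but CIH 3 was below Normoxia 3, unlike the shares. Whether these UMIs came from free RNA, and their part in the share, was not tested. With a stricter sum of 8 marker UMIs the difference in share was 4.77 points.

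Each step of the definition narrowed the nuclei: 5448 held Gabra6, 2792 of them also Fat2, and 2574 of these reached the marker sum. The limit on Mog and Mag left 1903, and the limit on inhibitory genes left the final 1809. Nuclei just outside the marker sum, with 4 UMIs and otherwise eligible, numbered 102 and had a median of 1702.5 UMIs. Nuclei just inside, with 5 UMIs, numbered 121 and had a median of 1634 UMIs. Summed over Slc17a7, Cbln3, Grin2c and Gabrd, which the definition did not use, these sets had 596 UMIs in 1000000 just inside and 539 just outside. Further inside, at marker sums of 6 and 7, the values were 497 and 408, below that just outside.

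Genes of granule neurons that the definition did not use were also high. They are described without a test, since members were chosen by their RNA. Values are the mean over 6 libraries in CPM, the UMIs of a class scaled to a library total of 1000000. They are compared with Slc17a6 neurons, 1427 nuclei with at least 2 UMIs of the vesicular glutamate transporter Slc17a6, at most 1 of Slc17a7, none of Gabra6 or Fat2 and the same limits on myelin and inhibitory genes. Slc17a7, the vesicular glutamate transporter of granule neurons, had 115 CPM in granule nuclei, against 20.7 CPM in all kept nuclei outside the rule. The transcription factor Neurod1 had 81.3 CPM in granule nuclei and 2.42 CPM in Slc17a6 neurons. For Etv1, another transcription factor of mature granule neurons, the means were 532 CPM in granule nuclei and 13.3 CPM in Slc17a6 neurons. Zic1 and Pax6, which act in granule cell development, followed the same pattern. Zic1 had 281 CPM in granule nuclei and 11.4 CPM in Slc17a6 neurons. Pax6 had 105 CPM in granule nuclei and 3.45 CPM in Slc17a6 neurons.

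Synaptic and receptor markers behaved alike. The cerebellin Cbln3, secreted by granule neurons, had 98.7 CPM in granule nuclei and 1.64 CPM in Slc17a6 neurons. Grin2c, the NMDA receptor subunit gained by mature granule neurons, had 178 CPM in granule nuclei against 9.22 CPM in Slc17a6 neurons. Gabrd had 96.9 CPM in granule nuclei against 2.42 CPM in Slc17a6 neurons. Cadps2, a protein of dense-core vesicle release, had 1407 CPM in granule nuclei and 74.3 CPM in Slc17a6 neurons. Kcnd2, the pore-forming subunit of the A-type potassium current, had 11375 CPM in granule nuclei and 2084 CPM in Slc17a6 neurons. The potassium channel Kcnk9 differed less, with 61.1 CPM in granule nuclei and 33.9 CPM in Slc17a6 neurons. Among the NFI genes, Nfia had 741 CPM in granule nuclei against 155 CPM in Slc17a6 neurons, Nfib 731 against 116 CPM, Nfix 170 against 14.2 CPM and Nfic 74.9 against 44.3 CPM.

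**Figure D2:**
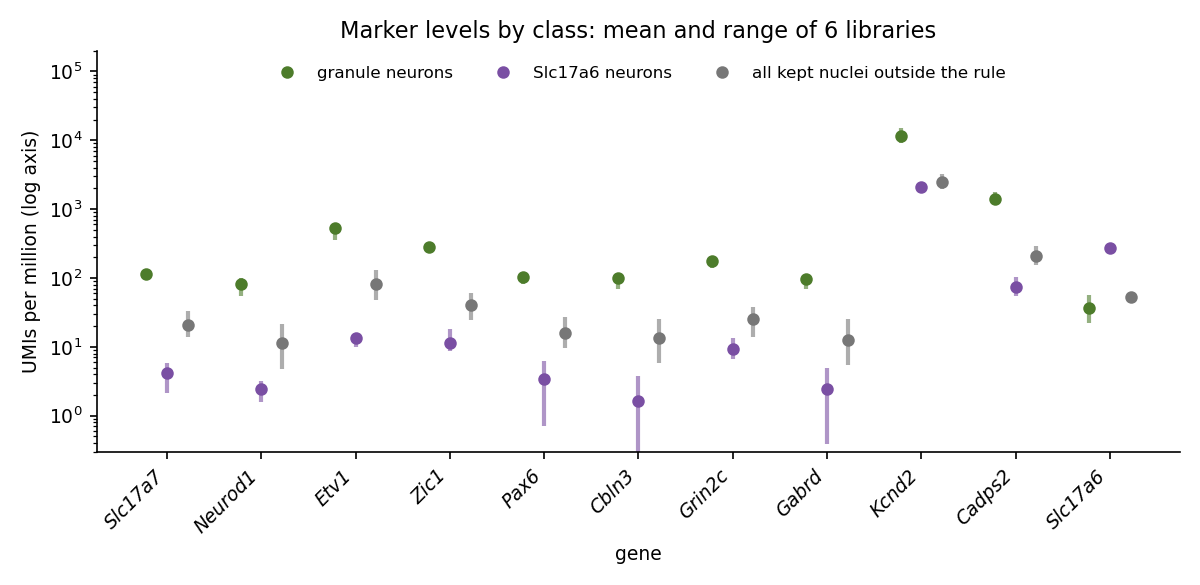
Mean (points) and range over 6 libraries (lines) of marker genes outside the definition, in CPM on a log axis, in granule neurons (green), Slc17a6 neurons (purple) and all kept nuclei outside the rule (grey). The first 10 genes are highest in granule neurons, with 115 CPM of Slc17a7 there. Slc17a6 is not, and the line of Cbln3 in Slc17a6 neurons runs to 0, off the axis. Slc17a6 and Slc17a7 were used to define the Slc17a6 neurons, which sets their levels in that class.

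The plot of marker levels shows that the ranges of granule nuclei and Slc17a6 neurons did not meet for its first 10 genes. For Slc17a7, which is among them, and for Slc17a6, the contrast was set by the limits that define Slc17a6 neurons. Genes of the granule cell lineage before maturity were mixed, with 12 of 14 detected and a sum of 582 to 625 CPM in CIH, against 561 to 595 CPM in Normoxia. Most of that sum came from Sema6a (1334 UMIs), the Hedgehog receptor Ptch1 (1051), its co-receptor Boc (1017) and the adhesion molecule Cntn2 (885), and Dcx, a gene of migrating neurons, had 227 UMIs. Atoh1, the factor that defines granule cell progenitors, and Nhlh1 had 0 UMIs in all 1809 nuclei, and a count of 0 allows up to 3. Mki67 and Top2a, genes of dividing cells, had 12 and 2 UMIs, and the Hedgehog target Gli1 had 2. Of other cell types, 1 defining marker of brainstem excitatory neurons and 1 of serotonergic and cholinergic neurons were at 0. The 6 brainstem excitatory markers still summed to 24.9 to 35.2 CPM in CIH, against 44.9 to 58.5 CPM in Normoxia, without overlap. Slc17a6, the 1 tested gene among them, was lower in CIH (log2 fold change -0.75, SE 0.23, edgeR adjusted p = 0.9996). The part of other neurons' RNA in these sums was not tested. The 6 serotonergic and cholinergic markers summed to at most 16.97 CPM in any library. The 8 oligodendrocyte markers summed to 823 to 1848 CPM in CIH, against 1078 to 1191 CPM in Normoxia, with the highest value in CIH 3. The 6 Purkinje markers summed to 1648 to 3484 CPM in CIH, against 1314 to 2056 CPM in Normoxia, again highest in CIH 3. Markers of unipolar brush cells, the other glutamatergic neurons of the granular layer, summed to 50.1 to 159 CPM in CIH, against 97.1 to 140 CPM in Normoxia. Endothelial markers reached 119 CPM in CIH 3 and 11.2 to 26.5 CPM in the other 5 libraries. Bergmann glia, mural and fibroblast markers summed to at most 20.5 CPM in any library.

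Hox genes, which mark hindbrain tissue behind the territory of the granule cell lineage, were sparse. At least 1 UMI over 16 Hox genes was found in 153 of 1809 granule nuclei (8.46%), against 697 of 1427 Slc17a6 neurons (48.8%). The Slc17a6 neurons were deeper, with median depths of 7429 to 10727.5 UMIs against 2653 to 3458 UMIs in granule nuclei. Oligodendrocytes, at median depths of 2648 to 4002 UMIs, gave 16.9%, and the granule share was below theirs in each of the 6 libraries. It was 7.74, 5.77 and 8.02% in CIH 1, 2 and 3, and 11.2, 13.6 and 10.5% in Normoxia 1, 2 and 3, without overlap between groups. Oligodendrocytes were also lower in CIH, at 12.9, 14.99 and 14.6%, against 20.3, 19.8 and 17.7% in Normoxia. Thinned to 1500 UMIs, the granule shares were 3.41, 1.80 and 4.23% in CIH, against 3.42, 5.48 and 5.74% in Normoxia. The groups then overlapped, and in CIH 1 the granule share was above the 3.20% of oligodendrocytes.

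The levels of the genes used by the definition were similar in both groups and are given with no test. Gabra6 had 557, 624 and 692 CPM in CIH 1, 2 and 3, and 588, 612 and 614 CPM in Normoxia 1, 2 and 3. Fat2 had 399, 427 and 497 CPM in CIH libraries, compared with 450, 429 and 429 CPM in Normoxia libraries. Chn2 had 1632, 1882 and 1817 CPM in CIH, against 1783, 1654 and 1294 CPM in Normoxia. Every one of these genes overlapped between groups, as did Il16 (303 to 358 CPM in CIH, against 265 to 338 CPM in Normoxia) and Cnpy1 (143 to 194 CPM in CIH, against 160 to 170 CPM in Normoxia).

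Depth per granule nucleus was also close. Median UMIs were 2985, 3458 and 2932 in CIH libraries, compared with 3018, 2990 and 2653 in Normoxia libraries, a difference of 238 UMIs (2-sided exact permutation p = 0.6). Median detected genes were 1527, 1703 and 1549.5 in CIH, against 1536, 1538 and 1384 in Normoxia, a difference of 107 genes (exact permutation p = 0.3). The median mitochondrial share was 0.0890, 0.104 and 0.272% in CIH, against 0.0887, 0.0588 and 0.0865% in Normoxia. These groups did not overlap (difference of 0.0772 percentage points, exact permutation p = 0.1), but CIH 3 decided the size: without it the difference was 0.0185 points.

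Granule nuclei also differed among themselves by depth. Nuclei with more than 3 times the median UMIs of their library's granule nuclei numbered 140, and they had 254 CPM of Gabra6, against 869 CPM in the 718 nuclei with 0.5 to 1 times the median. Part of this is built in, since the definition asks for a fixed number of Gabra6 and marker UMIs and so sets a high CPM in shallow nuclei. In the same comparison, deep nuclei had 70.5 against 14.2 CPM of Slc17a6, 88.0 against 15.4 CPM of the summed Hox genes and 59.2 against 135 CPM of Slc17a7. Because Slc17a6 and Hox genes are read in other brainstem neurons, a second set was formed after these values were seen. Shallow granule nuclei were the 1482 with at most 2 times their library's median UMIs and no Slc17a6 UMI, that is 366, 482 and 184 in CIH, against 139, 193 and 118 in Normoxia. The remaining 327 nuclei (18.1%) held 44.5% of all UMIs. What the deep nuclei are was not tested.

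**Figure D3:**
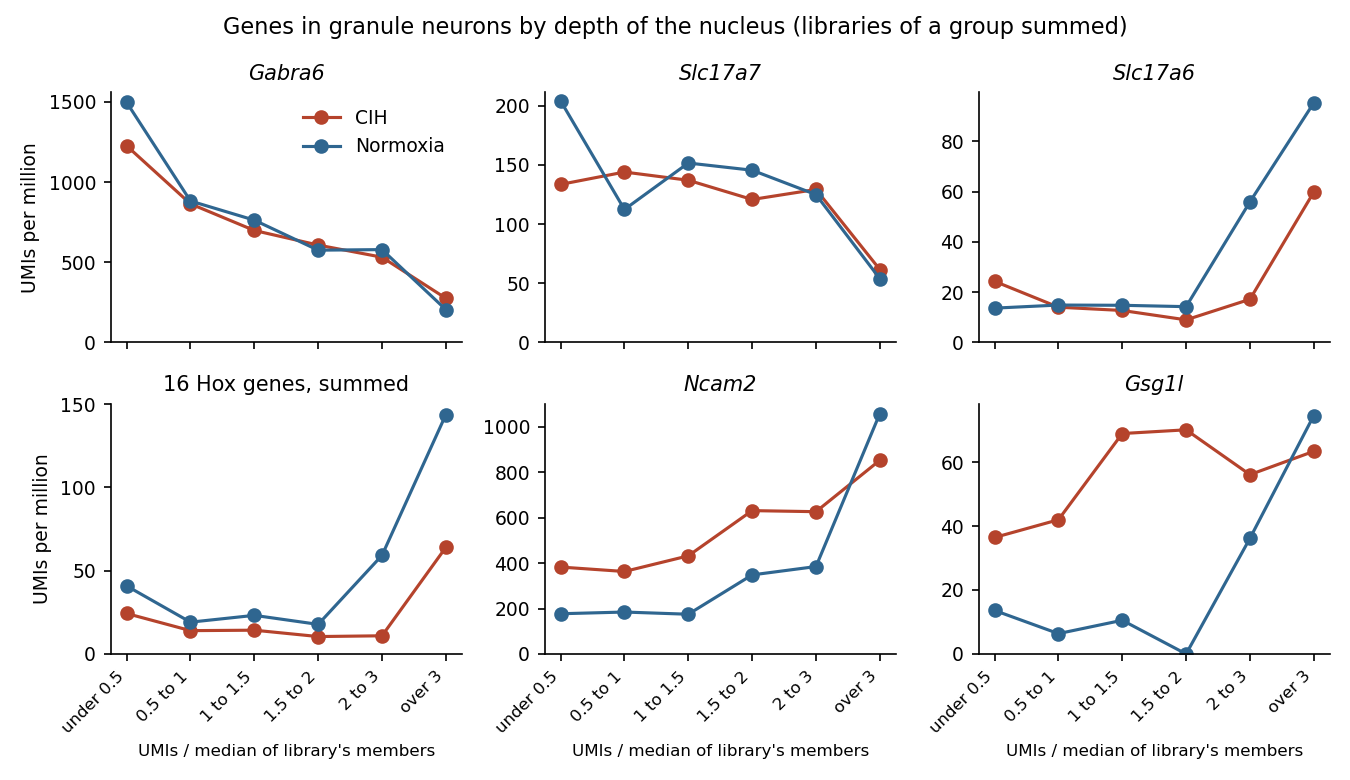
Levels in CPM of 6 genes or gene sums (panels) in granule nuclei, by the nucleus's UMIs divided by the median of its library's granule nuclei (x axis), with the 3 CIH libraries summed (red) and the 3 Normoxia libraries summed (blue). The fall of Gabra6 is in part set by the definition, which requires its UMIs; Slc17a6 and Hox are highest in the deepest bin, and Gsg1l and Ncam2 are higher in CIH in every bin up to 3 times the median and higher in Normoxia beyond it.

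The plot by depth shows that Gsg1l, an auxiliary subunit of AMPA receptors, had 42.0 CPM in CIH, against 6.36 CPM in Normoxia at 0.5 to 1 times the median. In the deepest nuclei it had 63.4 CPM in CIH, against 74.6 CPM in Normoxia. Ncam2, a neural cell adhesion molecule, had 363 CPM in CIH, against 184 CPM in Normoxia at 0.5 to 1 times the median, and 853 CPM in CIH, against 1058 CPM in Normoxia in the deepest nuclei.

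Within a library, most genes varied between granule nuclei close to counting noise. Of 4587 genes with a mean of at least 0.1 UMIs per nucleus in every library, the median ratio of variance to Poisson expectation was 1.197, and 349 genes exceeded 2. Ordered by their median rank over the 6 libraries, the first were Malat1, a long nuclear RNA, and Kcnip4, a subunit of Kv4 potassium channels, with median ratios of 49.99 and 28.9. Next came Lrrtm4, a synaptic adhesion protein, at 20.6, the glypican Gpc5 at 17.7, Kcnd2 at 13.1 and the glycosyltransferase Galntl6 at 12.6. This ranking was chosen after the data were seen, and depth adds to such ratios.

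CIH was compared with Normoxia on UMIs summed per library over all granule nuclei. With edgeR's quasi-likelihood test and Benjamini-Hochberg adjustment, 0 of 9197 tested genes (0%) passed an adjusted p of 0.05, and 342 (3.72%) had an unadjusted p under 0.05. DESeq2 called 2 genes. The groups did not overlap for 986 genes (10.7%): 517 (5.62%) were higher in CIH and 469 (5.1%) lower. The smallest adjusted p of edgeR was 0.295, for a gene with no established name, and all named genes had 0.9996. The genes that follow are those of smallest p in each direction or of smallest p or highest level in the lists, and their fold changes are values, not established changes.

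Among genes of excitability, Dpp6, an auxiliary subunit of Kv4 channels, had 3622, 3779 and 2455 CPM in CIH 1, 2 and 3, and 2245, 2264 and 1300 CPM in Normoxia 1, 2 and 3. All CIH libraries lay above all Normoxia libraries (log2 fold change 0.76, SE 0.22, edgeR adjusted p = 0.9996). Without CIH 3 and Normoxia 3 the log2 fold change was 0.72 and edgeR's adjusted p 0.00802, and with the replicate number as a block the adjusted p was 0.041. Both are values, not established changes. Its relative Dpp10, also a Kv4 subunit, lay the other way without overlap, with 1346, 805 and 1159 CPM in CIH, against 1669, 2020 and 1839 CPM in Normoxia (log2 fold change -0.74, SE 0.18). Kcnd2, the channel itself, had 11041, 12792 and 14936 CPM in CIH, against 9533, 9151 and 10797 CPM in Normoxia, with a log2 fold change of 0.40 (SE 0.13).

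Among genes of vesicle release and signalling, Cplx2, a complexin of the fusion machinery, had 93.1, 94.3 and 105 CPM in CIH, against 63.1, 49.98 and 56.2 CPM in Normoxia. The log2 fold change was 0.79 (SE 0.15), with no overlap. The calcium sensor Ncald had 369, 366 and 413 CPM in CIH, against 248, 210 and 275 CPM in Normoxia (log2 fold change 0.65, SE 0.13), again without overlap. Scg2, a granin of dense-core vesicles, was lower in every CIH library, with 41.5, 39.0 and 45.4 CPM against 82.7, 60.4 and 98.3 CPM in Normoxia (log2 fold change -0.92, SE 0.20). Its highest CIH value was below its lowest Normoxia value.

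Among transporters and surface proteins, the peptide transporter Slc15a2 had 52.1, 64.4 and 20.5 CPM in CIH, against 4.21, 11.3 and 12.03 CPM in Normoxia. The log2 fold change was 2.40 (SE 0.47, edgeR adjusted p = 0.9996), and DESeq2 gave an adjusted p of 0.0456; CIH 3 was the lowest CIH library, and without it edgeR gave an adjusted p of 0.00679. Ptprt, a receptor tyrosine phosphatase of synapses, had 841, 950 and 698 CPM in CIH, against 297, 389 and 576 CPM in Normoxia (log2 fold change 0.99, SE 0.22). Without CIH 3 and Normoxia 3, which were singled out from these same sums, its log2 fold change was 1.38 (edgeR adjusted p = 0.00474). The bicarbonate transporter Slc4a4 had 614, 699 and 664 CPM in CIH, against 477, 480 and 403 CPM in Normoxia (log2 fold change 0.54, SE 0.12). Slc4a4 is also an astrocyte gene: the 7 astrocyte markers, Slc4a4 among them, summed to 655 to 783 CPM in CIH, against 427 to 501 CPM in Normoxia. Slc4a4 itself made up most of the sum in every library, so the sum largely repeats its difference. The part of astrocyte RNA was not tested. Sema5a, a transmembrane semaphorin, had 120, 114 and 105 CPM in CIH, against 68.7, 78.3 and 80.2 CPM in Normoxia (log2 fold change 0.59, SE 0.13). None of these genes overlapped between groups.

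The remaining genes of smallest p on the higher side were Glp2r (a gut peptide receptor), Gas7, Ece1 (endothelin-converting enzyme) and Slc49a4. Their log2 fold changes ran from 0.60 for Ece1 to 0.82 for Slc49a4. On the lower side were Slc24a3 (a sodium, calcium and potassium exchanger), Dock10, Man1a, Lair1, Gprin3, Thsd7b, Ak5 and Frmd4b. Their log2 fold changes ran from -1.38 for Lair1 to -0.54 for Gprin3, and none overlapped between groups. In the shallow nuclei (defined above), only Gprin3 and Frmd4b of these lower genes stayed without overlap among those tested. Slc24a3 had a log2 fold change of -0.28 there, and Dock10, Man1a and Ak5 overlapped. Thsd7b, too low there to be tested, averaged 19.4 CPM in CIH, against 15.9 CPM in Normoxia. Lair1 is expressed by immune cells. In the same sums all 5 tested microglial markers were lower in CIH, 4 of them with an unadjusted p under 0.05, and the 6 markers summed to 77.5 to 141 CPM in CIH, against 143 to 259 CPM in Normoxia. The part of microglial RNA in these values was not tested.

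In the shallow granule nuclei, 0 of 7077 genes (0%) passed an adjusted p of 0.05 in edgeR, and 283 (4%) had an unadjusted p under 0.05. The groups did not overlap for 762 genes (10.8%), of which 396 (5.6%) were higher and 366 (5.17%) lower in CIH. DESeq2 called 4 genes, all higher in CIH: Gsg1l, Ncam2, Ptprt and Slc15a2. With the replicate number as a block, edgeR called 35 genes, 20 of them higher in CIH. No label pairs the libraries. Deviations of CIH 1 correlated more with those of Normoxia 2 (r = 0.18 across genes) than with those of Normoxia 1 (0.14). Calls with the block are therefore values, not established changes. With no block, edgeR called 10 without CIH 3, 2 without Normoxia 3 (Ncam2 and Ptprt) and 58 without CIH 3 and Normoxia 3. These calls are values too, since those libraries were singled out from the same data. With the block, edgeR's adjusted p was 6.53e-05 for Gsg1l, 1.15e-05 for Ncam2, 0.00149 for Sema3a, 0.000142 for Slc15a2 and 2.03e-05 for Ptprt. It was 1.82e-07 for Dpp6, 0.0195 for Cplx2 and 0.0256 for Sema5a. Among genes lower in CIH, it was 0.0015 for Dpp10, 0.0076 for Cdh13, 0.00908 for Ebf1, 0.00495 for Malat1 and 0.0437 for Tmem132c, while Scg2 missed the threshold at 0.0544. Without CIH 3 and with no block it was 0.00308 for Gsg1l and 0.0281 for Ncam2. Gsg1l and Ncam2 had stood out in an earlier look at the same libraries, so their values here are no independent evidence.

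Gsg1l (chr7:125878420-126082411, minus strand, mm10) had 76, 90 and 22 UMIs in shallow nuclei of CIH 1, 2 and 3, and 2, 4 and 3 UMIs in Normoxia 1, 2 and 3. In CPM these were 76.5, 58.8 and 44.4 in CIH, against 5.01, 7.80 and 11.1 in Normoxia, so every CIH library lay above every Normoxia library. The log2 fold change was 2.98 (SE 0.38, edgeR adjusted p = 0.0947), and DESeq2 gave an adjusted p of 0.00379. The ratio of summed levels was 8.19, with a counting interval of 4.22 to 18.2. The share of shallow nuclei with a Gsg1l UMI was 14.5, 14.1 and 8.70% in CIH, against 1.44, 2.07 and 2.54% in Normoxia, and thinned to 1500 UMIs it was 9.15, 6.67 and 6.21% in CIH, against 0.870, 1.18 and 2.04% in Normoxia. In oligodendrocytes the share was 10.3, 8.72 and 4.18% in CIH, against 7.01, 7.60 and 7.52% in Normoxia. Within its library each Normoxia granule share lay below the oligodendrocyte share and each CIH granule share above it. Because it exceeded the granule share in every Normoxia library, the oligodendrocyte share gives no background level for Gsg1l. Median depths of shallow granule nuclei were 2717.5 to 3108.5 UMIs in CIH and 2388 to 2762 UMIs in Normoxia.

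In all granule nuclei the Gsg1l difference was smaller, at 66.1, 61.9 and 38.0 CPM in CIH, against 47.7, 26.4 and 24.1 CPM in Normoxia (log2 fold change 0.81, SE 0.29, edgeR adjusted p = 0.9996). There the groups overlapped, because Normoxia 1 lay above CIH 3. In the deep nuclei alone Gsg1l had 57.1, 67.0 and 20.6 CPM in CIH, against 102, 43.9 and 39.7 CPM in Normoxia. In Slc17a6 neurons it had 66.1, 73.3 and 63.1 CPM in CIH, against 41.7, 44.8 and 50.6 CPM in Normoxia.

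Ncam2 (chr16:81200697-81626828, plus strand, mm10) had 477, 462 and 505 CPM in shallow nuclei of CIH 1, 2 and 3, and 235, 170 and 288 CPM in Normoxia 1, 2 and 3. All CIH libraries lay above all Normoxia libraries, with a log2 fold change of 1.08 (SE 0.17, edgeR adjusted p = 0.182) and an adjusted p of 0.00379 in DESeq2. An Ncam2 UMI was present in 45.1, 46.7 and 44.0% of shallow nuclei in CIH and in 24.5, 22.3 and 28.8% in Normoxia. Oligodendrocytes express this gene, at 1344, 1383 and 1368 CPM in CIH, against 1312, 1332 and 1547 CPM in Normoxia, so they give no background level for it. In all granule nuclei Ncam2 overlapped between groups, with 676, 550 and 565 CPM in CIH, against 419, 505 and 660 CPM in Normoxia (log2 fold change 0.18, SE 0.17), and without the shared barcodes the sign turned, at -0.023.

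**Figure D4:**
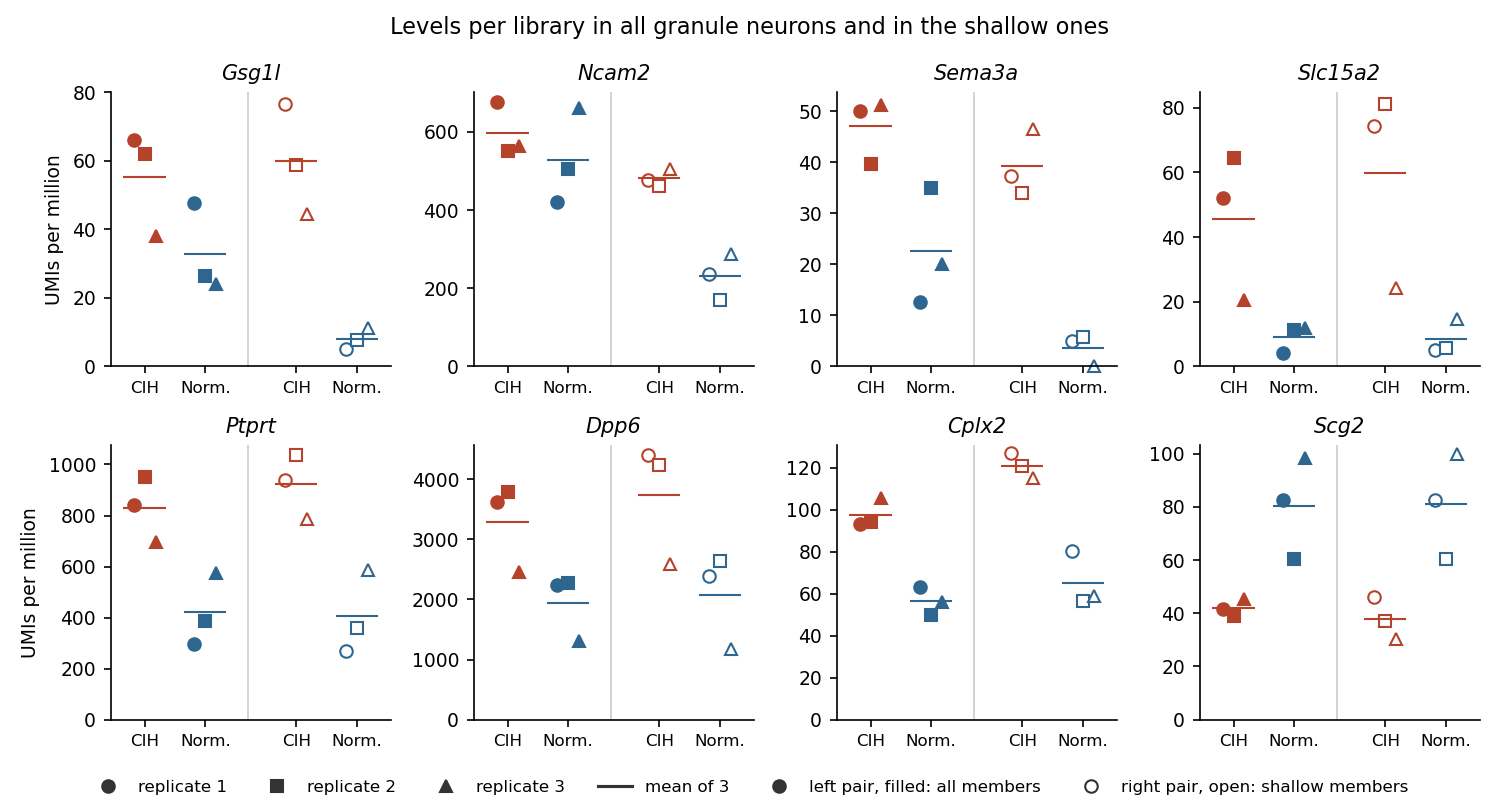
Levels in CPM of 8 genes (panels) in each library, in all granule nuclei (left pair, filled) and shallow granule nuclei (right pair, open), CIH in red left of Normoxia in blue, with the mean of 3 as a line and a symbol for each replicate number. Gsg1l and Ncam2 overlap between groups in all nuclei and not in the shallow ones, and Scg2 is lower in CIH in both.

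The plot of levels per library holds the genes that recur across both sets. Sema3a, a secreted repellent of axons, had 37, 52 and 23 UMIs in shallow nuclei of the CIH libraries and 2, 3 and 0 UMIs in those of Normoxia. Its levels were 37.2, 34.0 and 46.4 CPM in CIH, against 5.01, 5.85 and 0 CPM in Normoxia. The ratio of summed levels was 8.78 (counting interval 3.65 to 27.6), and the log2 fold change was 3.13 (SE 0.48, edgeR adjusted p = 0.182). Slc15a2 had 74, 124 and 12 UMIs in shallow CIH nuclei and 2, 3 and 4 UMIs in shallow Normoxia nuclei. In CPM it had 74.4, 81.0 and 24.2 in CIH, against 5.01, 5.85 and 14.8 in Normoxia, a log2 fold change of 3.03 (SE 0.57, edgeR adjusted p = 0.529). CIH 3 was again the lowest of its group, and CIH still lay above Normoxia in every pair of libraries. Slc17a6 neurons had 4.18 to 8.12 CPM of Slc15a2 in any library.

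Ptprt had 941, 1037 and 788 CPM in shallow nuclei of CIH and 268, 361 and 587 CPM in those of Normoxia, with no overlap (log2 fold change 1.21, SE 0.23, edgeR adjusted p = 0.529). The share of shallow nuclei with a Ptprt UMI was 60.1, 64.5 and 56.5% in CIH, against 23.7, 32.1 and 56.8% in Normoxia, and here Normoxia 3 lay within the CIH range. Dpp6 had 4400, 4234 and 2583 CPM in CIH, against 2388, 2643 and 1170 CPM in Normoxia (log2 fold change 0.85, SE 0.28, edgeR adjusted p = 0.9993). For Dpp6 CIH 3 lay just below Normoxia 2, so the groups overlapped. In Slc17a6 neurons Dpp6 was nearly level, with 1828, 1782 and 1782 CPM in CIH, against 1861, 1706 and 1772 CPM in Normoxia. Cplx2 had 127, 121 and 115 CPM in shallow CIH nuclei and 80.1, 56.5 and 59.1 CPM in shallow Normoxia nuclei (log2 fold change 0.89, SE 0.18). Sema5a had 127, 104 and 113 CPM in CIH, against 52.6, 62.4 and 70.2 CPM in Normoxia (log2 fold change 0.90, SE 0.18).

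A further 3 genes of smallest p were higher in shallow CIH nuclei without overlap. The Polycomb protein Cbx7 had a log2 fold change of 1.46, the secreted protein Fstl4 of 0.98 and Kcnq3, a subunit of the M-type potassium channel, of 0.77. Kcnq3 had 176, 195 and 262 CPM in CIH, against 133, 111 and 122 CPM in Normoxia, yet in all granule nuclei its log2 fold change was 0.02. On the lower side, Scg2 had 46.3, 37.2 and 30.3 CPM in CIH, against 82.6, 60.4 and 99.7 CPM in Normoxia (log2 fold change -1.02, SE 0.25). The cadherin Cdh13 had 77.5, 52.3 and 96.9 CPM in CIH, against 120, 136 and 174 CPM in Normoxia (log2 fold change -0.97, SE 0.24). The serotonin receptor gene Htr2c had 27.2, 37.2 and 34.3 CPM in CIH, against 50.1, 64.3 and 81.2 CPM in Normoxia (log2 fold change -0.95, SE 0.25). Zmat4, Tmem132c, Utrn (utrophin), the transcription factor Ebf1, Tent5d, Malat1 and Pwwp3a completed the list, with log2 fold changes from -1.62 for Zmat4 to -0.26 for Malat1. All were without overlap and had an edgeR adjusted p of 0.9993 with no block. Without CIH 3 and Normoxia 3, edgeR's adjusted p was 0.0128 for Cdh13, 0.0075 for Ebf1 and 0.0118 for Malat1. These too are values, since those libraries were singled out from the same data.

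Lists of related genes were read by their counts and medians beside all genes. Over all tested genes 51.4% had a positive log2 fold change in all granule nuclei, with a median of 0.01, and 50.3% in shallow nuclei, with a median of 0.0021. No member of any list passed the adjusted threshold in edgeR, so the counts give direction only. Of 11 tested GABA-A receptor genes, 6 were higher and 5 lower in CIH (median 0.02). Gabrb2, a receptor β subunit, had a log2 fold change of 0.14. Of 14 AMPA receptor genes and auxiliary subunits, 6 were higher and 8 lower (median -0.05), and in shallow nuclei 2 (Gsg1l and Gria4) were higher and 8 lower (median -0.17). Gria4, an AMPA receptor subunit, had a log2 fold change of 0.16, and Gria2 of -0.06. Of 19 NMDA, kainate and metabotropic receptor genes, 6 were higher and 13 lower (median -0.10). Grm5 had 451, 237 and 151 CPM in CIH, against 348, 505 and 706 CPM in Normoxia in all granule nuclei, but 70.4, 76.4 and 92.9 CPM in CIH, against 62.6, 107 and 114 CPM in Normoxia in shallow ones.

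Of 29 potassium channel genes and subunits, 18 were higher and 11 lower (median 0.06), and 5 had an unadjusted p under 0.05. In shallow nuclei 17 were higher and 11 lower (median 0.17), and 6 had an unadjusted p under 0.05. Of 23 sodium and calcium channel genes, 12 were higher and 11 lower (median 0.01). Scn3a, a sodium channel subunit, had 49.7, 35.7 and 33.7 CPM in CIH, against 61.7, 53.8 and 86.2 CPM in Normoxia. Of 27 presynaptic genes, 18 were higher and 9 lower (median 0.07), and in shallow nuclei 15 were higher and 12 lower. Of 46 adhesion and synapse organiser genes, 26 were higher and 20 lower (median 0.02), with Cadm1 at a log2 fold change of 0.33 and Negr1 at 0.26. Of 28 axon guidance genes, 7 were higher and 21 lower (median -0.21), and 5 had an unadjusted p under 0.05. Those 7 included Sema3a and Sema5a, while Plxna2, a semaphorin receptor, had 163, 147 and 149 CPM in CIH, against 174, 205 and 213 CPM in Normoxia. In shallow nuclei 5 guidance genes were higher and 18 lower (median -0.09).

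**Figure D5:**
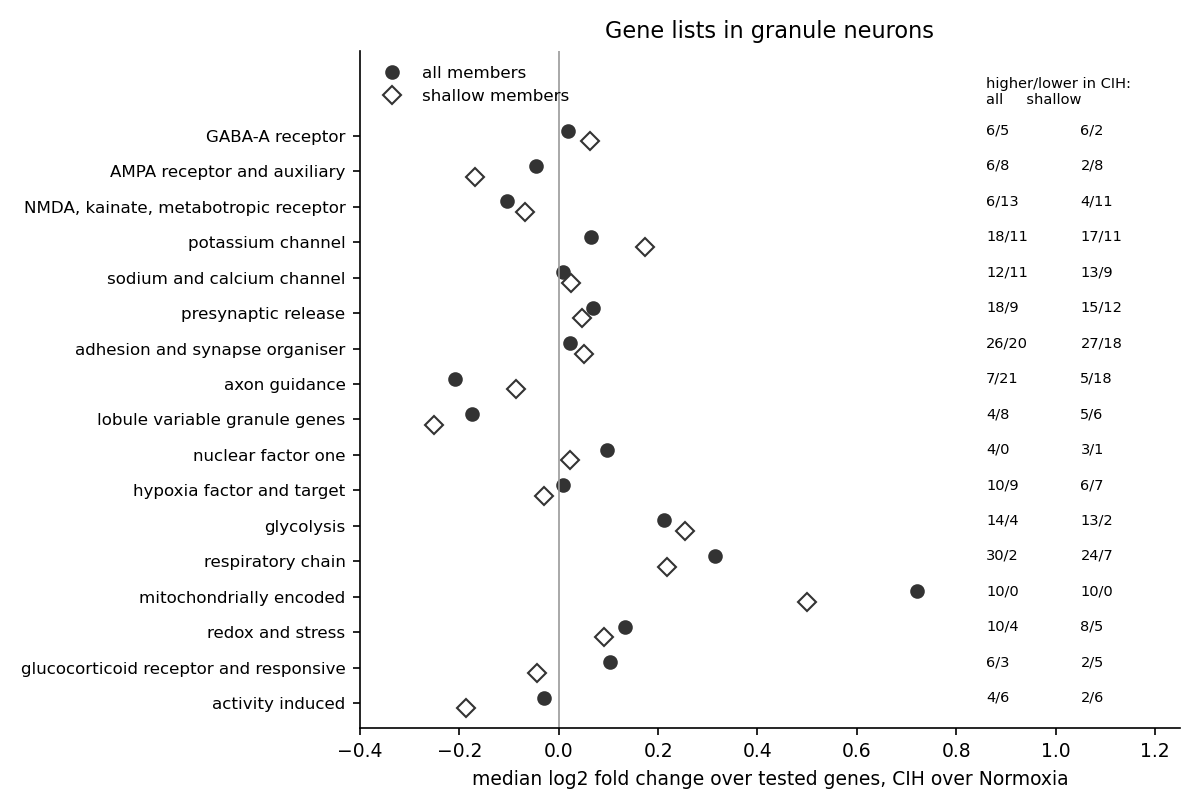
Median log2 fold change, CIH over Normoxia, of the tested genes of 17 lists (rows) in all granule nuclei (filled circles) and shallow granule nuclei (open diamonds), with the numbers of genes higher and lower in CIH at the right. Mitochondrially encoded genes lie farthest to the right, at 0.72 in all and 0.50 in shallow nuclei, and most neuronal lists lie within 0.2 of zero.

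In the plot of lists, metabolic genes lay to the right. Of 18 glycolysis genes, 14 were higher and 4 lower (median 0.21), and of 32 respiratory chain genes 30 were higher and 2 lower (median 0.32). All 10 tested mitochondrially encoded genes were higher (median 0.72). These medians were not recomputed with a library left out. The enzyme Tpi1 had 37.6, 35.0 and 68.8 CPM in CIH, against 25.2, 23.6 and 32.1 CPM in Normoxia. Cox4i1, a cytochrome oxidase subunit, had 78.1, 109 and 265 CPM in CIH, against 82.7, 93.4 and 174 CPM in Normoxia. The mitochondrially encoded mt-Co1 had 195, 209 and 663 CPM in CIH, against 196, 124 and 172 CPM in Normoxia. For these 3 genes CIH 3 held the highest value, and CIH 3 also had the highest mitochondrial share of all kept nuclei, with a median of 0.366%. The log2 fold change of mt-Co1 was 1.08, and it ran from 0.32 to 1.38 over the alternatives. The part of CIH 3 in the medians was not tested. In that library the mitochondrial share cannot be told apart from the exposure.

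Of 19 tested genes of the hypoxia response, 10 were higher and 9 lower (median 0.01), and in shallow nuclei 6 were higher and 7 lower. Egln1, a prolyl hydroxylase that senses oxygen, had 46.3, 39.7 and 48.3 CPM in CIH, against 35.1, 32.1 and 24.1 CPM in Normoxia, without overlap (log2 fold change 0.51, SE 0.21, edgeR adjusted p = 0.9996). In shallow nuclei Egln1 overlapped, with a log2 fold change of 0.22. Bnip3, a mitochondrial protein induced by low oxygen, had 14.5, 14.6 and 14.6 CPM in CIH, against 11.2, 7.54 and 10.0 CPM in Normoxia. Of 14 redox and stress genes, 10 were higher and 4 lower (median 0.13). Of 9 genes of the glucocorticoid response, 6 were higher and 3 lower (median 0.10), and in shallow nuclei 2 were higher and 5 lower. Sgk1, a kinase induced by glucocorticoids, had 220, 206 and 218 CPM in CIH, against 167, 190 and 189 CPM in Normoxia. Of 10 activity-induced genes, 4 were higher and 6 lower (median -0.03).

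Some genes differ between lobules of the cerebellum in granule neurons. Of 12 tested genes on such a list, 4 were higher and 8 lower in CIH (median -0.17), and 5 had an unadjusted p under 0.05. Ebf1 had 626, 445 and 439 CPM in CIH, against 666, 884 and 624 CPM in Normoxia, and Gprin3 had 76.2, 81.9 and 68.8 CPM in CIH, against 116, 110 and 106 CPM in Normoxia. Galntl6 had 999, 1169 and 3245 CPM in CIH, against 1436, 1334 and 3941 CPM in Normoxia, so the third library was the highest of each group and CIH was the lower in each pair of the same number. In shallow nuclei, edgeR called it with the replicate block and without CIH 3 and Normoxia 3. Which lobules a library sampled was not tested. The 4 NFI genes were all higher in CIH in all granule nuclei (median 0.10) and 3 of 4 in shallow ones (median 0.02), with no adjusted call.

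Whether CIH acted differently in granule neurons and in Slc17a6 neurons of the same libraries was tested with limma on the difference of log2 CPM between both classes in each library. In all granule nuclei 0 of 9100 genes (0%) passed an adjusted p of 0.05, and 457 (5.02%) had an unadjusted p under 0.05. DESeq2 was not run on this difference. The genes of smallest p were Prkg1 (a cGMP-dependent kinase), Luzp2, Scg2, Zfp804b and Epha3, each with a limma adjusted p of 0.504. For Scg2 the log2 effect of CIH was -0.90 in granule neurons and 0.07 in Slc17a6 neurons, where the gene had 87.5, 93.5 and 90.6 CPM in CIH, against 86.5, 74.4 and 97.7 CPM in Normoxia. For Prkg1 the effect was -0.72 in granule neurons and 0.43 in Slc17a6 neurons, but in shallow granule nuclei its log2 fold change was 0.09. Without CIH 1 the test called 19 genes, and without Normoxia 1 it called 1, Prkg1.

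In shallow nuclei 0 of 7005 genes (0%) passed in limma, and 326 (4.65%) had an unadjusted p under 0.05. Ncam2 and Gsg1l stood nearest to the threshold. The log2 effect on Ncam2 was 1.09 in shallow granule nuclei and 0.07 in Slc17a6 neurons, a difference of 1.02 (SE 0.14, limma adjusted p = 0.0588). Slc17a6 neurons had 1311, 1340 and 1407 CPM of Ncam2 in CIH, against 1176, 1128 and 1587 CPM in Normoxia. The effect on Gsg1l was 2.73 in shallow granule nuclei and 0.56 in Slc17a6 neurons, a difference of 2.17 (SE 0.30, limma adjusted p = 0.0588). Sema5a was next, with effects of 0.88 in shallow granule nuclei and -0.22 in Slc17a6 neurons (limma adjusted p = 0.228). Sv2c, a synaptic vesicle protein, and Nrcam, a cell adhesion molecule, followed with a limma adjusted p of 0.328.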

How the data were processed

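Nuclear RNA of 6 libraries was measured, 3 of CIH and 3 of Normoxia. The deposited matrices hold raw UMI counts per gene and nucleus, made with Cell Ranger 6.1.2 per the file headers (3.1.0 in the submitters' processing notes) on mm10. Library totals were 26733243 to 46754345 UMIs. Whether intronic reads were counted is not given in the sources used here, and intronic reads dominate nuclear RNA of long genes. Members and gene lists were chosen with earlier results of these data known.

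UMIs were summed per library over granule nuclei. Genes passing filterByExpr were tested with edgeR 4.0.16 (quasi-likelihood, TMM) and, as an alternative, DESeq2 1.42.0, with Benjamini-Hochberg adjustment at 0.05. CPM of all granule nuclei, shallow nuclei and Slc17a6 neurons used the TMM-scaled totals. Deep nuclei, depth bins, oligodendrocytes and nuclei outside the rule used plain UMI totals. Differences of effect used limma 3.58.1 on log2 CPM with a prior count of 1. The share of granule nuclei and the library medians of UMIs, genes and mitochondrial percent used exact permutation of 20 assignments. Scripts were tested on simulated data. Doublets were not removed, except in an alternative using Scrublet scores. Named genes were up to 10 of smallest p per direction, with no condition on overlap between groups. Others were 3 of smallest p and 2 of highest level per list, all markers, and Gsg1l and Ncam2. Lack of overlap among genes picked for a small p is no separate finding. Genes with predicted names were only counted. In shallow nuclei, correlations of deviations across genes between libraries of the same number were 0.14, 0.17 and 0.31. CIH 1 correlated more with Normoxia 2 (0.18). The labels give no shared day or litter, so the replicate block given there rests on no known pairing. In all granule nuclei the same-number correlations were -0.01, 0.14 and 0.18, and the numbers were not taken as pairs. Alternatives changed the rule, normalization, filter, tool and libraries. Some genes are not reported here.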

Additional observations from a re-analysis of the deposited data

How the results depend on the processing

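The difference in the share of granule nuclei kept its direction under every alternative run, between 2.65 and 10.3 percentage points, and between 3.25 and 8.88 when 1 library was left out; no alternative gave an exact permutation p under 0.05, which this design cannot reach. In all granule nuclei, where edgeR called 0 genes, DESeq2 called 2, no filter on low counts 77 and leaving out CIH 3 and Normoxia 3 together 7; leaving out 1 library gave 0 to 2. In shallow nuclei, with 0 called by edgeR, DESeq2 called 4, no filter 29 and leaving out CIH 3 and Normoxia 3 58; leaving out 1 library gave 0 to 10. The difference between granule and Slc17a6 neurons gave 0 to 19 calls when 1 library was left out. Ncam2 in all granule nuclei reversed without shared barcodes, to a log2 fold change of -0.023 (edgeR adjusted p = 0.998). The cause of these changes was not tested.

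With the replicate number as a block, edgeR called 1 gene (Dpp6) in all granule nuclei and 35 in shallow nuclei, and the limma difference called 0; the share gave p = 0.25 by exact sign flips of 3 pairs, the smallest possible. Of named genes, 22 in shallow nuclei were recomputed in 304 values, none reversed, but they were named from these same data. Over 14 alternatives the log2 fold change of Gsg1l ran from 1.93 to 3.30, and it was called in 5. That of Ncam2 ran from 0.57 to 1.26, and it was called in 6. The highest edgeR adjusted p was 0.9996 for each.

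Shallow Normoxia sums of 296819 to 535800 UMIs limit what low genes can show: Gsg1l rests there on 2 to 4 UMIs a library.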
